A study of Sus scrofa with 6 samples.

Results

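Integrins and other cell surface receptors for the extracellular matrix were examined in 3 lines of porcine embryonic fibroblasts (PEF5, PEF7 and PEF8) and in the porcine induced pluripotent stem cells made from each of them (piPSC5, piPSC7 and piPSC8). The genes were taken by symbol from the expression table. They are the integrin subunits, the syndecans, the glypicans numbered by a single digit, CD44, DDR1, DDR2 and DAG1, and 35 of the 18007 listed genes met this rule. They comprised 15 integrin alpha subunits, 8 integrin beta subunits, 4 syndecans, 4 glypicans and the 4 other receptors. The PEFs were untransduced primary cells from the ear tips of embryos at embryonic day 90. The sire was a Large White boar, spelled Longwhite in the labels, and the dam a Meishan sow, so the 3 lines share both parents. The piPSCs carried lentiviral Oct4, Sox2, Klf4 and cMyc under a doxycycline-dependent promoter together with the transactivator M2rtTA, and picked colonies were grown on mouse feeder cells. RNA of each line was sequenced as 1 library, so that each group has n = 3 lines.

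Integrins are heterodimers of 1 alpha and 1 beta subunit that bind matrix proteins outside the cell and, through talin and kindlin, the actin cytoskeleton inside it. The alpha subunit largely sets the ligand, which may be the RGD motif of fibronectin and vitronectin, collagen or laminin. Syndecans and glypicans carry heparan sulfate chains and act as co-receptors for matrix proteins and growth factors. CD44 binds hyaluronan, the DDR kinases bind collagen, and dystroglycan, the product of DAG1, binds laminin. Fibroblasts are known for fibronectin and collagen receptors, and pluripotent stem cells in culture for laminin and vitronectin receptors.

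Expression was given as FPKM, fragments scaled by gene length and by the total of the library, so levels of different genes can be set side by side. The totals per library, recovered from the FPKM steps, were 15146576 to 17836510 fragments in PEFs and 11010629 to 15050204 in piPSCs. The sum of 13 fibroblast markers was 6215 to 9226 FPKM in PEFs and 234 to 477 in piPSCs, and 12 of the 13 fell, with COL6A3 not passing the test. Of 15 listed pluripotency markers 10 were found, and their sum was 0.401 to 2.85 FPKM in PEFs and 3.36 to 9.05 in piPSCs. Of these, 3 were tested and 0 were called, with a median log2 fold change of 1.31. In 2 of the 3 every piPSC value lay above every PEF value, and in 1 every piPSC value lay below. The study reports relatively high endogenous Sox2 and Lin28b mRNA and low Oct4, Nanog, Sall4 and Esrrb after reprogramming. NANOG, singled out from the list, was at 0 in piPSC5 and piPSC8 and at 0.0920 FPKM in piPSC7. This defining marker of the labelled cell type was thus absent or nearly so. The 3 PEF lines are described as male, but DDX3Y on chromosome Y had 0 fragments in both libraries of line 5 and of line 7, against 3439 in PEF8 and 4207 in piPSC8. An XIST feature had 192 to 441 fragments in the libraries of lines 5 and 7 and 0 in those of line 8. Lines 5 and 7 therefore go against the stated sex, and values of every line are given below. In these bulk libraries, fewer cells of a type and less RNA per cell cannot be told apart, and fragments of the mouse feeder cells cannot be separated from those of the piPSCs.

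Matrix receptor genes were mostly lower in piPSCs than in PEFs, and 1 of them was far higher. Of the 35 genes, 31 reached the mean level of 0.5 FPKM needed for the test, and ITGA7, ITGB2, ITGB6 and ITGB7 did not. By limma on log2(FPKM + 1), 17 genes fell and 1 rose (adjusted p under 0.05 after Benjamini and Hochberg, and a change of 2-fold or more), and 13 were not called. Among all 12428 tested genes, 16.7% were called lower and 20.2% higher by the same rule. The median log2 fold change was -1.39 over the 31 genes and 0.20 over all tested genes. Rescaling the libraries to the median ratio or to equal sums moved the median of all tested genes to -0.01 and -0.06 and the higher genes from 54.8% of all calls to 42.8% and 41.4%. It moved the median of the 31 to -1.61 and -1.81, with 19 genes lower and 1 higher in both cases. In 18 of the 31 genes every piPSC value lay below every PEF value, against 26.8% of all tested genes, and in 1 every piPSC value lay above, against 37.3%. Within the lines, 13 genes were at least 2-fold lower in piPSC5, piPSC7 and piPSC8 than in the matching PEF on the FPKM + 1 scale, against 11.9% of all tested genes, and 1 was at least 2-fold higher in the 3 of them, against 12.8%. In 4 of the 31 genes the mean of 1 group was itself under 0.5 FPKM, so they entered the test through the other group alone. They were ITGA4, low in PEFs, and ITGA11, ITGB5 and GPC2, low in piPSCs, and all of them were called. An exact permutation test of 3 lines against 3 cannot give a p under 0.1 and was not used for single genes.

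**Figure D1:**
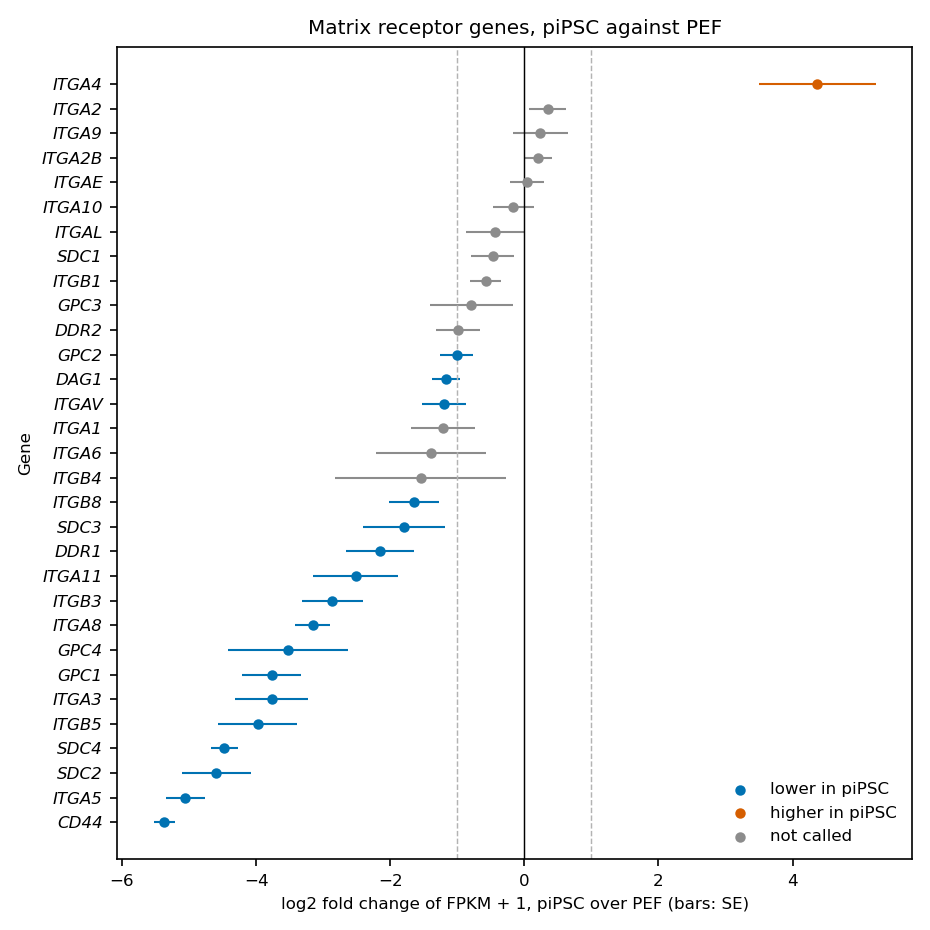
Log2 fold change of FPKM + 1 in piPSCs over PEFs for the 31 tested matrix receptor genes, ordered by value. Points are limma estimates from 3 libraries per group, bars are standard errors, dashed lines mark a 2-fold change, and colours mark the calls. ITGA4 stands alone on the right at 4.37, while CD44 and ITGA5 lie farthest to the left at -5.37 and -5.05.

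The promoters of 4 genes are shown to set ITGA4, the gene that rose, beside CD44, SDC4 and ITGA5, the 3 that fell with the lowest adjusted p. Each sequence is the 250 bases before the RefSeq gene start on Sscrofa11.1, read 5′ to 3′ on the strand of the gene. Capitals mark matches, on either strand, to the letters TGANTCA (AP-1), TGTGGT (RUNX), GGAATG (TEAD), GGGCGG (GC box) and ATGCAAAT (octamer), and matches may overlap.
ITGA4 promoter, chr15:86941804-86942053, plus strand: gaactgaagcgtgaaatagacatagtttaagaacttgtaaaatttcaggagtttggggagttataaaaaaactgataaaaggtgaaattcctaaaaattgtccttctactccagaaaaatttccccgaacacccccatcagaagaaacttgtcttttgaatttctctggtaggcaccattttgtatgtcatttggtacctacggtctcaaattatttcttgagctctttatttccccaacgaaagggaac
CD44 promoter, chr2:25884210-25884459, minus strand: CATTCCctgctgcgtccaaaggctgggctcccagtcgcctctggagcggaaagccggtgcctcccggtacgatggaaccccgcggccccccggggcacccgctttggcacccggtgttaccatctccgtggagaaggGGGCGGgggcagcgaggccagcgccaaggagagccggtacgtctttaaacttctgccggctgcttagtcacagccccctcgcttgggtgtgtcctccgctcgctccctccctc
SDC4 promoter, chr17:47670500-47670749, minus strand: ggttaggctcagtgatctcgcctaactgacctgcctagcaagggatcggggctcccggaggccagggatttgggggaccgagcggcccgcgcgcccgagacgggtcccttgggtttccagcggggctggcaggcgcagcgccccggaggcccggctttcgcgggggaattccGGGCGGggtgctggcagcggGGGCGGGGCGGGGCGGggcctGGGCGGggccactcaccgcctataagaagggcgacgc
ITGA5 promoter, chr5:19610581-19610830, minus strand: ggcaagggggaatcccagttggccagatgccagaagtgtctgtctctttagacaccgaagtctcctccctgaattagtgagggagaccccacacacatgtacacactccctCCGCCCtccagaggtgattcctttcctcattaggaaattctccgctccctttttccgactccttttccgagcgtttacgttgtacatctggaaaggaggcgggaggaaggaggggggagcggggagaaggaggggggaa
The ITGA4 window held none of these letters and was AT-rich, with 36.4% G and C. The CD44 window had 68% G and C with 1 TEAD match and 1 GC box, the SDC4 window 74% with 5 GC boxes, and the ITGA5 window 55.6% with 1 GC box. The RefSeq start lay 4942 bases before the start of the gene in the table for ITGA4 and 38 before it for SDC4. For CD44 it lay 48 bases after that start and for ITGA5 629 after. The whole ITGA5 window thus lies inside the gene as the table gives it. Which start these cells use was not tested, so the windows may not be the promoters in use. Over the promoters of all 35 genes, the GC box was found in 19, RUNX and TEAD letters in 6 each, AP-1 letters in 2 (DAG1 and ITGB6) and the octamer in 0. Among 19556 RefSeq promoters of this length, the shares were 45.9% for the GC box, 14.0% for RUNX, 10.3% for TEAD, 5.27% for AP-1 and 1.24% for the octamer. A match describes the letters and is not a measured binding site.

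Among the RGD-binding alpha subunits, 3 of 4 genes fell. ITGA5, which pairs with ITGB1 as the main fibronectin receptor (ENSSSCG00000000293, chromosome 5 of Sscrofa11.1 from 19583451 to 19611209), was at 73.3, 49.2 and 74.6 FPKM in PEF5, PEF7 and PEF8 and at 1.55, 1.17 and 0.393 in piPSC5, piPSC7 and piPSC8. The groups were far apart, with means of 65.7 ± 14.3 and 1.04 ± 0.591 FPKM (SD, n = 3), a 63.3-fold difference of the means. The log2 fold change was -5.05 (SE 0.29, adjusted p = 0.000173 by limma). ITGA8, a receptor for nephronectin in mesenchyme, was at 20.2, 15.1 and 28.3 FPKM in PEFs and at 1.74, 1.28 and 1.25 in piPSCs in the same order of lines, with a fold change of -3.16 on the log2 scale (SE 0.26, adjusted p = 0.00038 by limma). The 3 piPSC values of ITGA8 lay close together and all PEF values were above 15 FPKM. ITGAV, the vitronectin receptor subunit that accepts several beta subunits, was at 15.01, 14.7 and 19.9 FPKM in PEFs and at 11.07, 4.20 and 5.97 in piPSCs. It kept the highest level of the 3 in piPSCs, and its fall was small in line 5 and larger in lines 7 and 8. Its log2 fold change of -1.20 (SE 0.33, adjusted p = 0.0217 by limma) lost its call in 5 of the 6 fits that left out 1 library, with an adjusted p of up to 0.0708. Those 5 were the fits without PEF5, PEF7, PEF8 or piPSC8, and that without piPSC7, in which it was under 2-fold at -0.92. ITGA2B, the platelet fibrinogen receptor subunit, was at 4.98, 4.48 and 4.72 FPKM in PEFs and at 6.13, 4.35 and 6.58 in piPSCs, and was not called (log2 fold change 0.21, SE 0.20, adjusted p = 0.415 by limma, and -0.017 and -0.072 under the 2 rescalings). Its feature spans 101178 bases and also covers the RefSeq gene GPATCH8, so these values may hold fragments of either gene. The summed platelet markers were 2.78 to 6.95 FPKM in PEFs and 1.95 to 3.19 in piPSCs over 4 genes, with GP1BA at 0 in all PEFs, and their part in the ITGA2B values was not tested.

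The collagen-binding alpha subunits were uneven, with 1 of 4 genes called. ITGA11, a receptor for fibrillar collagen on fibroblasts, was at 6.92, 14.7 and 1.51 FPKM in PEFs and at 0.236, 0.172 and 0.149 in piPSCs. The PEF lines differed widely among themselves, yet the lowest of them was above every piPSC value. The log2 fold change was -2.52 (SE 0.63, adjusted p = 0.0157 by limma), with -1.91 without PEF7 and -3.23 without PEF8. Without PEF5 it was -2.41 and no longer called (adjusted p = 0.0531), nor was it with voom on the fragments (adjusted p = 0.0643). ITGA1, a collagen IV receptor, was at 9.51, 5.18 and 3.50 FPKM in PEFs and at 3.44, 2.31 and 0.578 in piPSCs. Each line moved down, but the PEF and piPSC ranges nearly touched, and the unpaired test did not call it (log2 fold change -1.22, SE 0.47, adjusted p = 0.0697 by limma). With the line as a block, pairing each piPSC with its own PEF, the same log2 fold change was called lower (adjusted p = 0.0142 by limma). It was also called lower under the 2 rescalings, at -1.42 and -1.75 (adjusted p = 0.0375 and 0.0475 by limma). ITGA2 and ITGA10 were not called, with log2 fold changes of 0.35 and -0.16. ITGA10 stood at 3.06 to 7.13 FPKM over the 6 libraries and ITGA2 at 0.152 to 1.18. The summed cartilage markers, listed because ITGA10 is known from cartilage, were 0.808 to 4.60 FPKM in PEFs and 0.547 to 4.45 in piPSCs. The ITGA10 feature also overlaps the RefSeq genes GNRHR2 and ANKRD35, and ITGA11 and ITGA2 overlap FEM1B and MOCS2 on the other strand, which a kit without strand marking cannot separate.

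Among the laminin-binding alpha subunits, ITGA3 fell and ITGA6 overlapped between the groups. ITGA3 was at 26.0, 16.8 and 38.8 FPKM in PEFs and at 0.538, 3.27 and 0.152 in piPSCs, with a fold change of -3.77 on the log2 scale (SE 0.54, adjusted p = 0.00204 by limma). piPSC7 kept the most ITGA3 of the piPSCs and PEF8 had the most of the PEFs. ITGA6, which pairs with ITGB1 or, in hemidesmosomes, with ITGB4, was at 39.2, 12.2 and 4.19 FPKM in PEFs and at 1.73, 9.94 and 4.12 in piPSCs. Line 5 went down steeply, line 7 slightly and line 8 hardly at all, so that the groups overlapped (log2 fold change -1.39, SE 0.82, adjusted p = 0.191 by limma). ITGA7, a laminin receptor of muscle, stayed under 1 FPKM throughout and had its highest value, 0.961, in piPSC7. DES, a muscle marker, was at 14.2 FPKM in that library and at 0.0404 to 2.51 in the others. The sum of the 5 skeletal muscle markers found was also 14.2 FPKM in piPSC7, so nearly all of it was DES. Its relation to ITGA7 was not tested.

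ITGA4 was the 1 matrix receptor gene that rose. It encodes the alpha subunit that binds VCAM1 and an alternatively spliced part of fibronectin, pairs with ITGB1 or ITGB7, and is best known from leukocytes and neural crest. The gene (ENSSSCG00000016009, chromosome 15 of Sscrofa11.1 from 86946996 to 87029729) was at 0.116, 0.0354 and 0.0489 FPKM in PEFs, which rest on 14, 4 and 5 fragments. In piPSC5, piPSC7 and piPSC8 it was at 12.0, 7.29 and 98.3 FPKM, from 1221, 586 and 7310 fragments. Every piPSC line thus expressed a gene that was close to absent in its PEF line, and piPSC8 stood far above the other two. The log2 fold change was 4.37 (SE 0.87, adjusted p = 0.00691 by limma), and it was 3.28 without piPSC8 and 5.08 without piPSC7. The ratio of the mean FPKM values was 586 with piPSC8 and 144 without it. ITGA9, its closest relative and a tenascin receptor, showed no such difference, with 0.187, 0.171 and 1.31 FPKM in PEFs and 0.269, 0.521 and 1.73 in piPSCs (log2 fold change 0.24, adjusted p = 0.649 by limma). ITGB7, the other partner of ITGA4, had 0 to 2 fragments in piPSCs and 1 to 24 in PEFs. The leukocyte alpha subunits ITGAL and ITGAE were not called either, with log2 fold changes of -0.44 and 0.04 (adjusted p = 0.415 and 0.906), and that of ITGAE was -0.086 and -0.16 under the 2 rescalings. The summed leukocyte markers were 14.0 to 26.0 FPKM in PEFs and 4.23 to 4.63 in piPSCs over 8 genes, of which CD14 fell. ITGA4 overlaps CERKL by 938 bases on the other strand, and ITGAE overlaps NCBP3 by 11894 bases on the same strand.

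**Figure D2:**
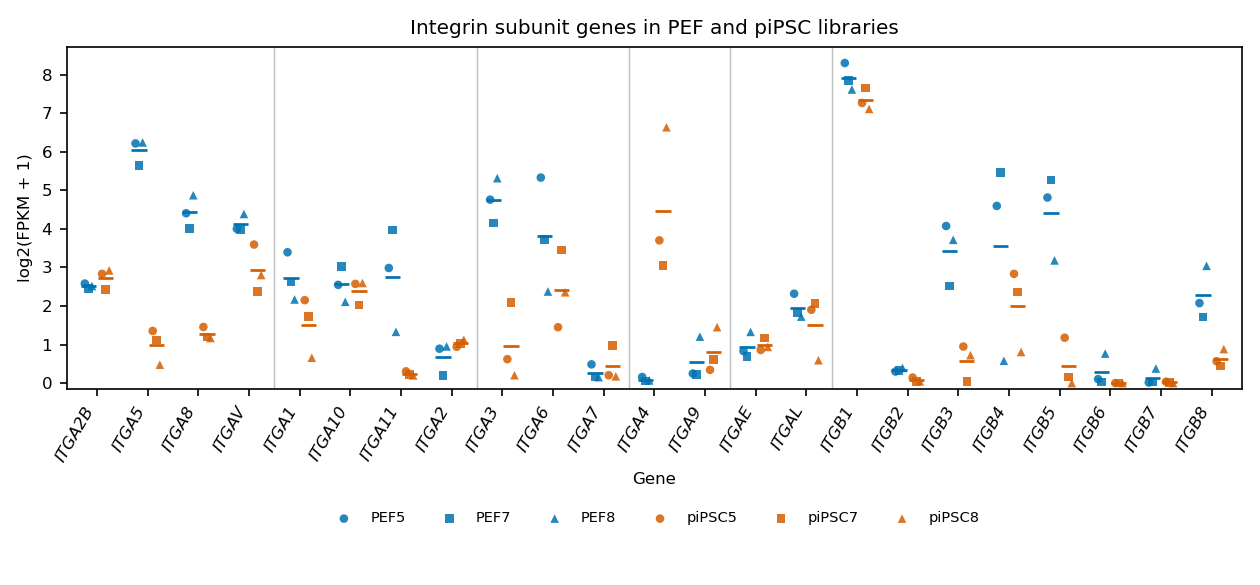
Levels of the 23 integrin subunit genes as log2(FPKM + 1) in each of the 6 libraries, with blue for PEFs and orange for piPSCs, and circles, squares and triangles for lines 5, 7 and 8. Horizontal bars are group means and grey lines part the RGD-binding, collagen-binding, laminin-binding, alpha4 and alpha9, leukocyte and beta subunits. ITGB1 is at the top in both groups, and ITGA4 is the 1 gene with all orange points well above the blue ones.

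The beta subunits separated into ITGB1, abundant in both groups, and its 7 alternatives, 3 of which fell. ITGB1, the common partner of most alpha subunits, was at 314, 229 and 195 FPKM in PEFs and at 153, 199.6 and 137 in piPSCs. It was the most abundant integrin gene in every library, and its log2 fold change of -0.58 (SE 0.23, adjusted p = 0.0777 by limma) was not called. Under the 2 rescalings ITGB1 was at -0.85 and -0.90 (adjusted p = 0.0231 and 0.0209 by limma), still short of 2-fold. ITGB3, which pairs with ITGAV and ITGA2B, was at 15.8, 4.73 and 12.1 FPKM in PEFs and at 0.929, 0.0302 and 0.652 in piPSCs, with a fold change of -2.86 on the log2 scale (SE 0.46, adjusted p = 0.00301 by limma). ITGB5, a vitronectin receptor subunit, was at 27.1, 37.6 and 8.07 FPKM in PEFs and at 1.26, 0.116 and 0 in piPSCs. The 0 in piPSC8 allows up to 3 fragments, or 0.0417 FPKM, by counting error alone, and lies below PEF8 in any case. Its log2 fold change was -3.98 (SE 0.59, adjusted p = 0.00239 by limma) and -4.60 without PEF8. The ITGB5 feature also overlaps a protein-coding feature on the other strand by 56610 bases, which a kit without strand marking cannot separate. ITGB8, which with ITGAV activates latent TGF-beta, was at 3.21, 2.27 and 7.23 FPKM in PEFs and at 0.481, 0.362 and 0.843 in piPSCs, with a fold change of -1.64 on the log2 scale (SE 0.37, adjusted p = 0.0114 by limma). All 3 of these subunits had every piPSC value below every PEF value. The ITGB8 feature also overlaps the RefSeq gene MACC1. ITGB4, the hemidesmosome subunit, was at 23.2, 43.1 and 0.494 FPKM in PEFs and at 6.12, 4.13 and 0.749 in piPSCs. It was lower in lines 5 and 7 but near 0 on both sides of line 8, and was not called (log2 fold change -1.55, SE 1.27, adjusted p = 0.337 by limma). Without PEF8 it was called at -3.03 (adjusted p = 0.0171 by limma). The epithelial markers CDH1 and EPCAM were at or below 0.117 and 0.0732 FPKM in every library, while the sum of 9 epithelial markers, in PEFs mostly CLDN6, was 11.7 to 37.4 FPKM in PEFs and 1.05 to 11.0 in piPSCs. Of the subunits not tested, ITGB2 was at 0.232 to 0.313 FPKM in PEFs and 0.0307 to 0.105 in piPSCs, and ITGB6 had 7, 2 and 56 fragments in PEFs and 0 in each piPSC library.

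The make-up of the integrin pool differed between the groups, described here as shares of the summed FPKM and without a test. ITGB1 made up 81.9%, 72.2% and 86.9% of the beta subunit sum in PEF5, PEF7 and PEF8 and 94.5%, 97.7% and 98.4% in the piPSCs. Among alpha subunits, ITGA5 led in each PEF library with 35.5%, 34.3% and 40.3%, and held 3.22%, 2.65% and 0.309% in the piPSCs. ITGA4 led in piPSC5 and piPSC8 with 24.9% and 77.4% and was second to ITGA6 in piPSC7, at 16.6% against 22.6%. In PEFs its share was 0.0247% to 0.0563%, the lowest of the 15. The sum over all alpha subunits was 206, 143 and 185 FPKM in PEFs and 48.3, 44.0 and 127 in piPSCs, highest in piPSC8 among the piPSCs. Over all listed genes, FPKM summed to 337074 to 348943 in PEFs and to 420498 to 437853 in piPSCs. The sums given here were not rescaled for this difference. The sum over beta subunits was 384, 317 and 224 FPKM in PEFs and 162, 204 and 139 in piPSCs. The ratio of the alpha to the beta sum was 0.538, 0.452 and 0.826 in PEFs and 0.299, 0.215 and 0.911 in piPSCs, which overlap because of piPSC8.

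**Figure D3:**
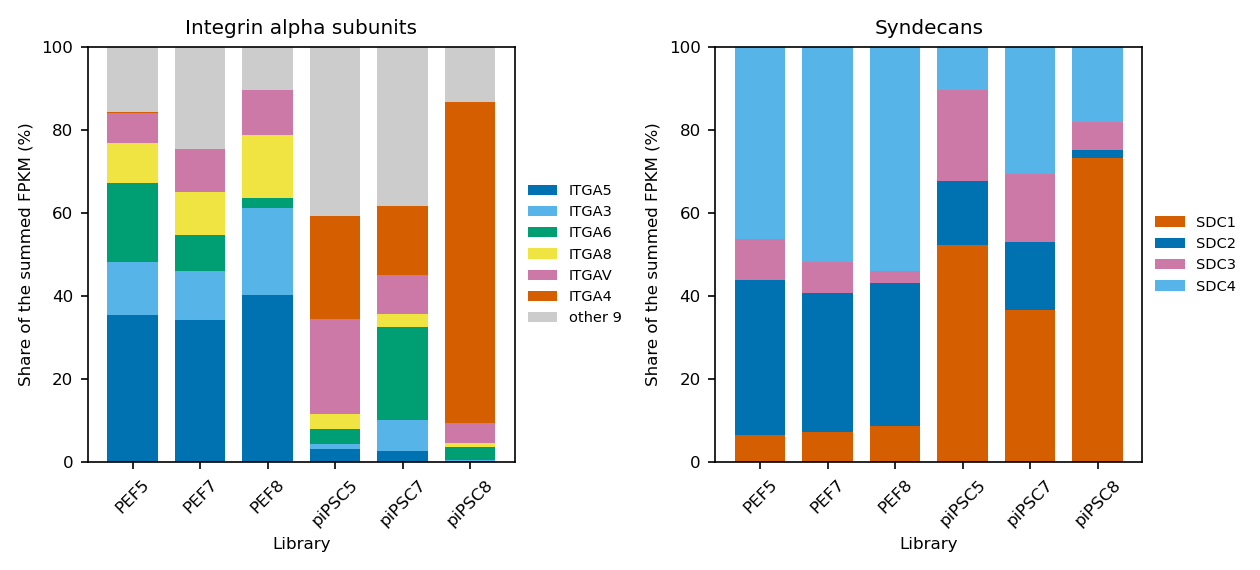
Share of the summed FPKM, in percent, that each gene took among the 15 integrin alpha subunits (left) and the 4 syndecans (right) in each library, with the other 9 alpha subunits in grey. ITGA5 in dark blue holds 34.3% to 40.3% of the alpha sum in PEFs and ITGA4 in orange 16.6% to 77.4% in piPSCs, and among syndecans SDC1 in orange takes the largest share in each piPSC library.

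Of the syndecans, SDC2, SDC3 and SDC4 fell and SDC1 was not called. SDC4, a partner of ITGA5 and ITGB1 in focal adhesions (ENSSSCG00000038594, chromosome 17 of Sscrofa11.1 from 47646933 to 47670461), was at 106, 111 and 91.9 FPKM in PEFs and at 3.07, 4.99 and 3.18 in piPSCs. The lines were close to each other on both sides, with means of 103 ± 10.0 and 3.75 ± 1.08 FPKM (SD, n = 3) and a log2 fold change of -4.47 (SE 0.20, adjusted p = 0.000104 by limma). SDC2, the syndecan of mesenchymal cells, was at 85.5, 72.03 and 58.6 FPKM in PEFs and at 4.55, 2.66 and 0.325 in piPSCs, with a fold change of -4.59 on the log2 scale (SE 0.51, adjusted p = 0.000877 by limma) that was -4.00 without piPSC8. SDC3, known from the nervous system, was at 22.5, 15.8 and 5.28 FPKM in PEFs and at 6.42, 2.69 and 1.18 in piPSCs. It was lower in each line, but piPSC5 exceeded PEF8. Its log2 fold change of -1.79 (SE 0.62, adjusted p = 0.047 by limma) was just inside the threshold and was lost without PEF5, PEF7, piPSC7 or piPSC8, with a pseudocount of 0.1, without the filter and with voom, where the adjusted p ran from 0.0502 to 0.141. SDC1, the epithelial syndecan, was at 15.1, 15.5 and 14.9 FPKM in PEFs and at 15.4, 6.01 and 12.8 in piPSCs (log2 fold change -0.47, SE 0.32, adjusted p = 0.254 by limma). It was the least or second least abundant syndecan in PEFs and the most abundant in each piPSC library, with 6.58% to 8.74% and 36.7% to 73.3% of the syndecan sum. That sum was 229.5, 215 and 171 FPKM in PEFs and 29.4, 16.4 and 17.5 in piPSCs.

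Glypicans, which are anchored by a glycolipid, fell in 3 of 4 genes. GPC1 was at 29.7, 31.0 and 44.7 FPKM in PEFs and at 1.67, 3.74 and 0.396 in piPSCs, with a fold change of -3.77 on the log2 scale (SE 0.44, adjusted p = 0.00106 by limma). GPC4 was at 54.8, 57.4 and 27.5 FPKM in PEFs and at 3.51, 12.5 and 0 in piPSCs, where the 0 in piPSC8 allows up to 0.0612 FPKM by counting error alone. Lines 5 and 7 kept some GPC4 and line 8 none detectable at this depth. The log2 fold change of GPC4 was -3.53 (SE 0.89, adjusted p = 0.0166 by limma), with -2.54 without piPSC8 and -4.42 without piPSC7. The call was lost without PEF5 (adjusted p = 0.0554), without PEF7 (0.056) and with a pseudocount of 0.1 (0.0507). GPC4 and its neighbour GPC3 lie on chromosome X, and line 8 is the line with DDX3Y fragments; the number of X chromosomes and the line cannot be told apart here. GPC3, a regulator of embryonic growth, was at 1.28, 5.09 and 0.259 FPKM in PEFs and at 1.43, 0.297 and 0.0712 in piPSCs and was not called (log2 fold change -0.79, adjusted p = 0.314 by limma). GPC2 was low in PEFs, at 1.91, 1.69 and 2.32 FPKM, and lower in piPSCs, at 0.766, 0.485 and 0.210, from 20, 10 and 4 fragments. Its log2 fold change of -1.01 (SE 0.24, adjusted p = 0.0135 by limma) was just past 2-fold and fell short of it without PEF8 (-0.93) and without piPSC8 (-0.87). The GPC2 feature also overlaps the RefSeq gene LAMTOR4, and the GPC1 feature overlaps ANKMY1. Both features described as GPC6 were listed by identifier alone and were not among the 35 genes. They stood at 0.630 to 2.01 FPKM in PEFs and at 1.10 to 7.04 in piPSCs, and neither was called (log2 fold changes 0.74 and 1.16, adjusted p = 0.207 by limma and 0.0583).

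CD44 had the largest decrease of the 31 tested genes on the log2(FPKM + 1) scale and the smallest standard error. With a pseudocount of 0.1 and with voom, ITGB5 decreased more, at -6.04 against -6.03 and at -7.54 against -6.09 for CD44. CD44 (ENSSSCG00000013297, chromosome 2 of Sscrofa11.1 from 25788693 to 25884257) was at 104.8, 98.5 and 97.8 FPKM in PEFs and at 1.79, 1.18 and 1.41 in piPSCs. The means were 100.4 ± 3.84 and 1.46 ± 0.307 FPKM (SD, n = 3), a 68.7-fold difference, and the log2 fold change was -5.37 (SE 0.16, adjusted p = 6.7e-05 by limma). A second feature described as CD44 antigen lies on the other strand across 50931 bases of the gene, and it had at most 21 fragments in any library. Of the collagen-binding kinases, DDR1 was at 11.8, 7.23 and 12.3 FPKM in PEFs and at 1.41, 4.14 and 0.296 in piPSCs, with a fold change of -2.15 on the log2 scale (SE 0.51, adjusted p = 0.0128 by limma). The decrease was smallest in line 7. DDR2, the fibroblast form, was at 21.5, 13.3 and 12.4 FPKM in PEFs and at 6.98, 10.9 and 4.78 in piPSCs. Its log2 fold change of -0.99 (SE 0.33, adjusted p = 0.0429 by limma) passed on the adjusted p but was just short of 2-fold, and it was called at -1.23 and -1.36 under the 2 rescalings and also with a pseudocount of 0.1, with voom and without piPSC7. DAG1 was at 68.1, 63.3 and 55.1 FPKM in PEFs and at 28.8, 20.45 and 33.6 in piPSCs, with no overlap and a log2 fold change of -1.17 (SE 0.21, adjusted p = 0.00476 by limma). In piPSCs it was the most abundant of the 12 receptors that are not integrins. Without piPSC7 its log2 fold change was -0.97, which is under 2-fold.

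**Figure D4:**
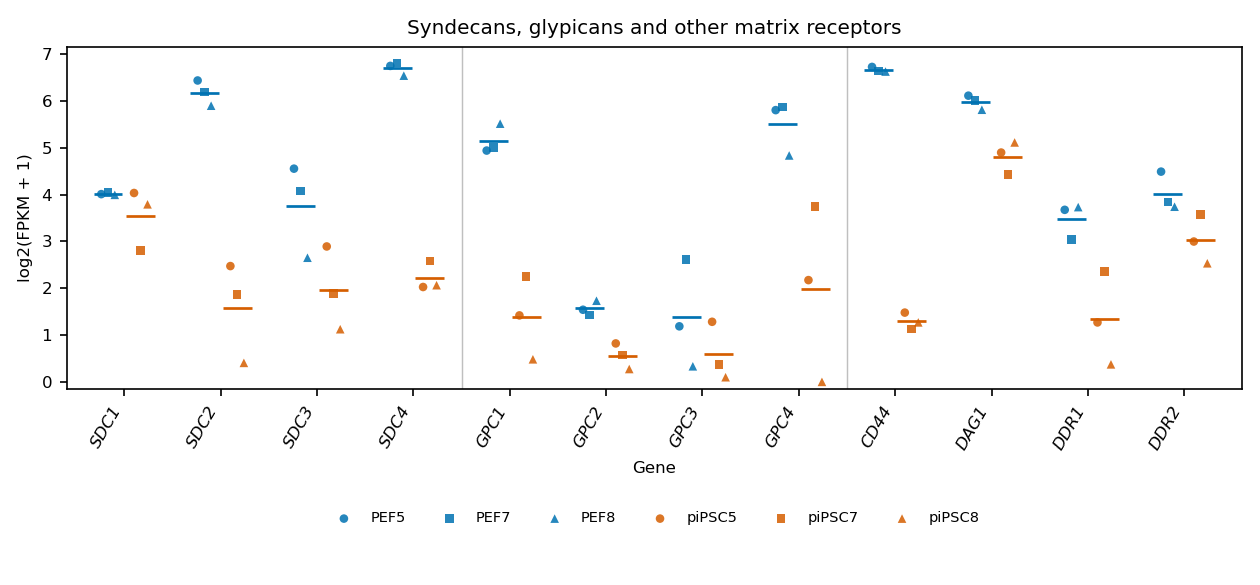
Levels of the syndecans, the glypicans and the other matrix receptors as log2(FPKM + 1) in each library, with blue for PEFs, orange for piPSCs, circles, squares and triangles for lines 5, 7 and 8, and bars for group means. CD44, SDC4 and SDC2 show the widest gaps between groups, SDC1 overlaps, and DAG1 is highest in piPSCs.

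The genes that work with these receptors were read from 6 lists, against the same 16.7% lower and 20.2% higher of all tested genes. Of the integrin ligands other than collagens, 29 of 33 were found and 22 tested, and 17 fell with a median log2 fold change of -2.90. None was called higher by limma or by voom, and 0 were higher at an unadjusted p under 0.05. The largest decreases were those of the thrombospondins THBS1 and THBS2 and of VCAM1. VCAM1, a counter-receptor of ITGA4, was at 90.4, 19.6 and 169 FPKM in PEFs and at 0.107, 1.05 and 0.0732 in piPSCs (log2 fold change -5.67, adjusted p = 0.00159 by limma). FN1, encoding fibronectin and singled out after its values were seen as the ligand of ITGA5 and ITGA4, was at 318, 643 and 189.7 FPKM in PEFs and at 27.0, 1.63 and 94.9 in piPSCs (log2 fold change -4.15, SE 1.25, adjusted p = 0.031 by limma). It was lowest in piPSC7 and, among the piPSCs, highest in piPSC8, the library with the most ITGA4. The relation of FN1 to ITGA4 was not tested.

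Inside the cell, 34 of 37 focal adhesion linkers and kinases were tested, and 16 fell and 2 rose with a median log2 fold change of -1.04. The paxillin relative TGFB1I1 went from 54.8, 66.8 and 89.3 FPKM in PEFs to 1.36, 3.62 and 1.27 in piPSCs, with a fold change of -4.59 on the log2 scale (adjusted p = 0.000274 by limma). TNS1, a tensin, and PARVA, a parvin that binds integrin-linked kinase, fell by 3.57 and 3.17 on the log2 scale. FERMT1, a kindlin, and PARVB, the sister gene of PARVA, rose by 1.49 and 1.34. PARVB was at 18.3, 26.4 and 16.2 FPKM in PEFs and at 67.7, 51.9 and 39.5 in piPSCs, while PARVA was at 68.3, 90.3 and 89.9 and at 7.24, 8.02 and 9.69, so the order of these parvins was opposite in the groups.

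Of 19 tetraspanins and other integrin-associated membrane proteins, 16 were tested and 10 fell, with a median log2 fold change of -2.00. The urokinase receptor PLAUR, galectin-1 (LGALS1) and the tetraspanin CD151, which binds laminin-binding integrins, had the largest decreases, at -6.11, -4.48 and -3.70. By limma 0 genes of this list were called higher, 1 was higher at an unadjusted p under 0.05 and 1 was called by voom. Of 30 genes of heparan sulfate synthesis and editing, 21 were tested and 6 fell, with a median of -0.47. The sulfatases SULF1 and SULF2 and the lipase-like enzyme NOTUM decreased most, by log2 fold changes of -3.27, -3.004 and -2.41, and 0 were called higher by limma, with 3 at an unadjusted p under 0.05 and 1 by voom. Of the syndecan and glypican genes that carry these chains, 6 of 8 fell.

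For CD44, 19 of 22 genes of hyaluronan metabolism and CD44 partners were found and 14 tested, and 3 fell and 1 rose, with a median of -0.53. Among all tested genes 16.7% were called lower and 20.2% higher, so the 3 of 14 that fell are near that share. The hyaluronan-degrading CEMIP, the membrane linker MSN and the hyaluronan-binding proteoglycan VCAN fell by 5.51, 2.30 and 1.79 on the log2 scale. HMMR, a hyaluronan receptor that also acts at the mitotic spindle, rose from 4.04, 0.448 and 0.904 FPKM in PEFs to 9.86, 9.02 and 9.84 in piPSCs (log2 fold change 2.13, adjusted p = 0.009 by limma). With both rescalings 5 genes of this list were lower. For DAG1, 25 of 31 genes of dystroglycan glycosylation and the dystrophin complex were found and 23 tested, and 6 fell and 2 rose, with a median of -0.03. The sarcoglycan gene SGCD and the sarcospan gene SSPN were among those that fell, at log2 fold changes of -4.65 and -2.92. DTNB, a dystrobrevin, and B3GALNT2, an enzyme that builds the laminin-binding sugar of dystroglycan, rose by 1.48 and 1.22.

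**Figure D5:**
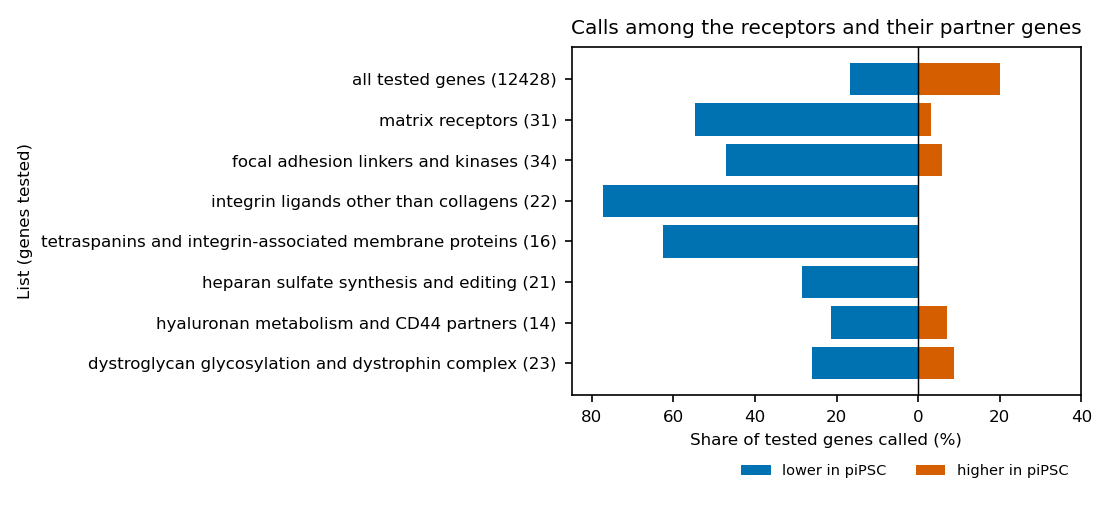
Share of tested genes called lower (blue, to the left) and higher (orange, to the right) in piPSCs, in percent, for all tested genes, the matrix receptors and the 6 partner lists, with the number of genes tested in brackets. The integrin ligands, with 17 of 22 genes lower, reach farthest to the left, against 16.7% of all tested genes.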

How the data were processed

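Gene expression was measured by RNA-seq in 3 PEF lines and the 3 piPSC lines made from them. Per the labels, poly-T selected RNA was made into libraries with the NEBNext Ultra kit, which does not mark strand. The authors deposited FPKM values of 18007 genes on Sscrofa11.1, and the submitters' processing notes name HISAT2 2.1.0, HTSeq 0.6.0 and Bowtie2 2.2.3 without their roles. The annotation release and the strand setting of the counting are not given in the sources used here. Whole fragments were recovered from the FPKM steps for 18007 genes (100%), which gave totals of 11010629 to 17836510 per library.

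Values were compared as log2(FPKM + 1) in R 4.3.3 by the moderated, trended and two-sided test of limma 3.58.1 (lmFit, eBayes, Benjamini-Hochberg over all tested genes), for 12428 genes with a mean of at least 0.5 FPKM. Fold changes on this scale understate those of low genes. A call needed a 2-fold change or more and an adjusted p under 0.05. The fit was unpaired, which is the kind of test the study's statistics section names, although its RNA-seq comparison set each piPSC line against its own PEF line. The fit was tested on simulated data drawn without pairing or line effects, which cannot show its error rate on paired lines. No result here rests on that test. Each line is 1 library, so p-values measure the spread between these lines. Lines pair the samples, since each piPSC line came from the PEF line of its number. Within lines, the departures of the 2 libraries from their group means had correlations of 0.0921, 0.0946 and 0.08, and between lines of -0.121 to 0.0553. The alternatives were a replicate block, a pseudocount of 0.1, other filters, both rescalings, voom on the recovered fragments and leaving out each library.

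The genes and lists were chosen with earlier results of these data known. Values in every library are given for each called gene and for others with a mean of at least 5 FPKM, and the rest mostly by range. At most 3 called genes per direction are named from each partner list, apart from FN1, which was singled out among the ligands after its values were seen. All 35 genes matched a RefSeq gene by symbol and position, and motif counts used RefSeq promoters with Python 3.11.15, numpy 2.4.6 and pandas 2.3.3. piPSC-A1 and piPSC-D1, chromatin accessibility, methylation and protein sequences were not analysed here, and some items are not reported here.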

Additional observations from a re-analysis of the deposited data

How the results depend on the processing

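The calls and log2 fold changes of the receptors and the counts of calls in the lists were recomputed under 13 alternatives, 6 of which left out 1 library. ITGA2, ITGA9 and ITGAE were under the filter of a mean of at least 1 FPKM and have 12. Shares, family sums, marker sums and list medians were not recomputed, other than the median of the receptors. Of the 18 called genes, ITGA4 and 11 of the lower genes kept their call in every alternative. The number of matrix receptors called lower was 13 to 17 without 1 library and at most 19, and the number called higher was 1 throughout. With the replicate block 18 were lower, ITGA1 being added, and the pairing changed no other call among them. In the lists, the block gave 16 ligands lower in place of 17, 4 hyaluronan genes in place of 3 and 5 dystroglycan-list genes in place of 6. Direction turned in genes that were not called. ITGA2B was at -0.017 (median ratio) and -0.072 (equal sums), and ITGAE at -0.086 and -0.16 in the same order. Without 1 library, ITGAE ran from -0.091 to 0.23 (below 0 without PEF5, PEF7 or piPSC7), ITGA10 from -0.39 to 0.068 (above 0 without PEF7 or piPSC7), ITGA9 from -0.086 to 0.56 and ITGAL from -0.71 to 0.024 (both turned without piPSC8). In the partner lists, 1 tetraspanin-list gene was called higher with a pseudocount of 0.1 and with voom, and 1 heparan sulfate gene with both of these and with equal sums. These counts were 0 to 1 without 1 library. Hyaluronan genes called lower numbered 5 under both rescalings and 2 to 4 without 1 library, and those called higher 1 to 2. Dystroglycan-list genes called higher numbered 1 with the median ratio and 1 to 3 without 1 library. The causes were not tested. Precision is limited by 3 lines per group, and for genes such as ITGA4 in PEFs by 4 to 14 fragments.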
